A study of Mus musculus with 4 samples.

Results

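The autophagy machinery was followed here as 36 genes, chosen by gene symbol from their roles in starting, building, loading and clearing autophagosomes. This rule uses no measured value, but earlier results of these data were known when the genes were chosen. All 36 were found among the 51826 genes of the count table, and all 36 were among the 16120 genes with enough counts to be tested. RNA was sequenced from the quadriceps of 2 WT and 2 Mef2dα2 Eko mice, 1 library per mouse. All 4 were sedentary C57BL6/J males at 20 weeks of age. The Mef2dα2 Eko mice carried a germline CRISPR-Cas9 deletion of the α2 exon of Mef2d, which encodes a muscle transcription factor of the MEF2 family, and their WT controls came from the same heterozygous crosses. The deletion is present in every cell of the body and not in muscle alone, and the labels do not say from which of the study's founder lines the sequenced mice came.

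Autophagy encloses worn proteins and organelles in a double membrane, the autophagosome, and delivers them to the lysosome for breakdown. A kinase complex around ULK1 starts the process, a lipid kinase complex marks the membrane, ubiquitin-like conjugation attaches ATG8 proteins (LC3 and GABARAP) to it, and cargo receptors tie the load to the ATG8 proteins. In skeletal muscle the pathway is known for supplying amino acids during fasting and for removing damaged mitochondria, and many of its genes are known targets of the transcription factors TFEB and FOXO3.

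Transcript levels are given as CPM, counts per 1000000 of a library size that edgeR scaled by the trimmed mean of M values, and levels of different genes are compared only per kilobase of exon. The comparison asks whether loss of the α2 exon altered the expression of these genes. With edgeR's quasi-likelihood fit and p-values adjusted by Benjamini and Hochberg's method over all genes tested, 0 of the 36 autophagy genes passed a threshold of 0.05, against 0.416% of all genes (67 of 16120). By other tests, DESeq2 called 1 member, where it called 2.39% of the 13307 genes given an adjusted p. With genes of low counts kept, edgeR also called 1, where it called 3.25% of all genes. Both times it was Pink1. At an unadjusted p below 0.05, 7 members (19.4%) differed, where the share over all genes was 11.6%. Of these 7, Pink1, Tfeb, Rb1cc1 and Bnip3l were higher in Mef2dα2 Eko mice, where 5.15% of all genes were higher by this rule, and Ulk1, Wipi1 and Atg13 were lower, where 6.41% of all genes were lower. The p-values rest on only 2 mice per genotype, and edgeR moderates each gene's spread between them toward a trend over all genes tested.

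**Figure D1:**
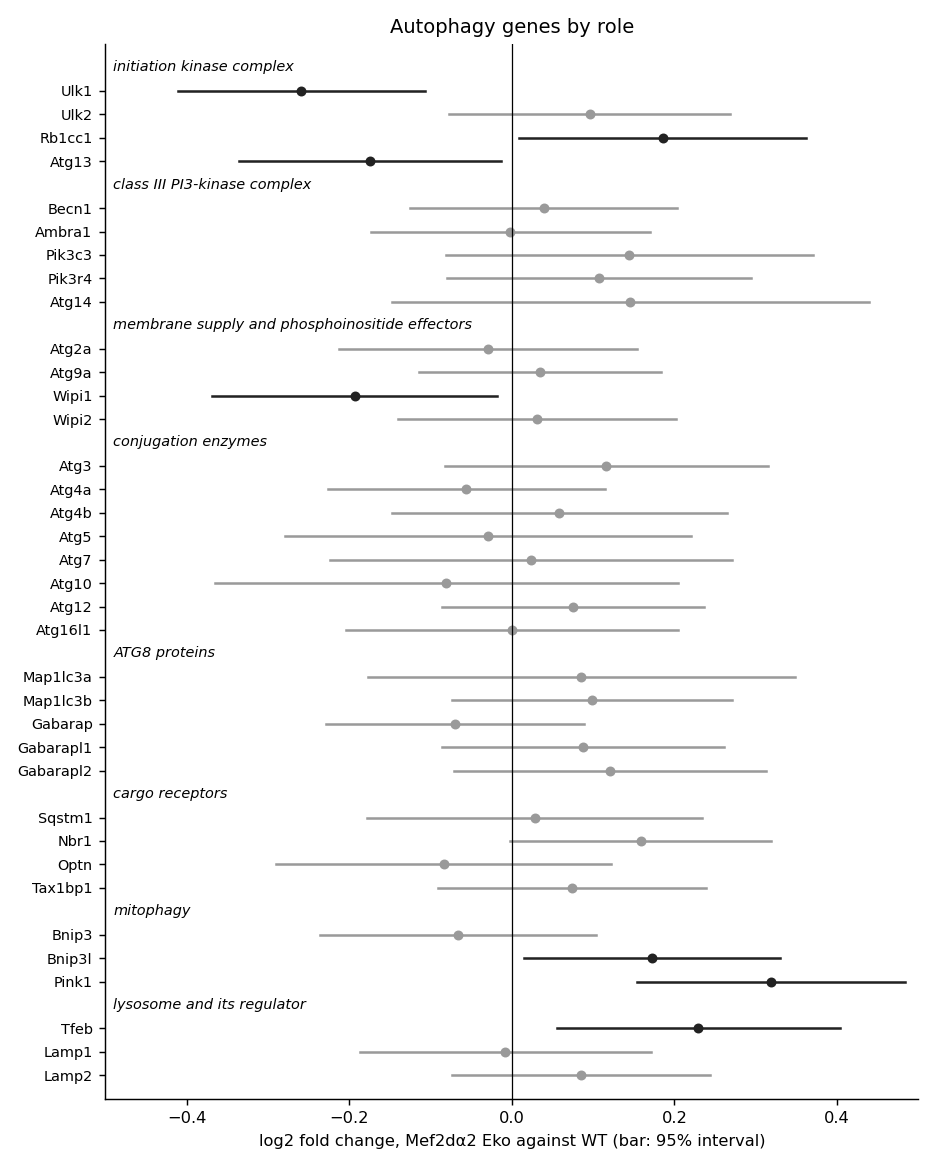
Log2 fold change of each of the 36 autophagy genes in Mef2dα2 Eko against WT quadriceps (x axis, log2 units), grouped by role (y axis), with bars for the 95% interval of edgeR's quasi-likelihood fit to 2 mice per genotype. The 7 genes in black have an interval that leaves out 0, and every interval lies between -0.5 and 0.5.

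Sizes were small throughout. The members' log2 fold changes (Mef2dα2 Eko against WT) ran from -0.26 to 0.32 with a median of 0.05, and 24 of 36 were above 0, while the median over all genes tested was -0.0051. The median absolute log2 fold change was 0.084 for the members and 0.14 for all genes, or 0.098 for the genes expressed at least as highly as the lowest member. Each of the 36 intervals lay within a 1.5-fold change either way, and every member was well counted, with 328 to 56628 counts per library. For 15 members both Mef2dα2 Eko mice lay above both WT mice (41.7%, against 20.8% of all genes), for 6 they lay below both (16.7%, against 23% of all genes), and for 15 the genotypes overlapped. Together the members took 0.303% and 0.326% of the counts in the WT libraries and 0.330% and 0.333% in the Mef2dα2 Eko libraries.

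Library totals were 72626757 to 85176059 counts, so that 3 counts, the floor of detection, stood at 0.0352 to 0.0413 CPM, a floor that covers counting error only. The markers of skeletal muscle fibres summed to 137900 and 142000 CPM in WT and 139700 and 146700 CPM in Mef2dα2 Eko mice, so the tissue label held. The gene table cannot check the exon deletion itself, since Mef2d was counted as a whole gene, at 19687 and 18393 counts in WT, against 21695 and 17206 counts in Mef2dα2 Eko mice. WT replicate 1 stood apart from the other libraries: the chi-square per degree of freedom between libraries was 119 to 215 for pairs with it and 35.5 to 42 for the others. It also had the highest summed level of adipocyte markers, at 81.6 CPM, where WT replicate 2 had 31.5 CPM and the Mef2dα2 Eko mice 26.5 and 11.5 CPM. Log2 fold changes without this library are therefore given beside those of the members described in full.

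Promoter sequence was available for 29 of the 36 members in the RefSeq table of windows from 250 bases before to 50 after each start site (GRCm38.p6). Both strands were searched for the E-box CACGTG, the core of the element that TFEB binds, for its longer form TCACGTGA, which contains an E-box, for the FOXO element TGTTTAC and for the MEF2 consensus. An E-box lay in the windows of 6 members (20.7%: Atg14, Atg3, Atg5, Atg7, Bnip3 and Lamp1), against 8.09% of the 27025 genes in the table. The longer form was found at Atg3 (3.45% of members, 1.12% of all genes), the FOXO element at 0 members (4.05% of all genes), and the MEF2 consensus at Atg13 (3.45% of members, 3.7% of all genes). The stretches of Lamp1, Atg3 and Atg13 show examples, with E-box and MEF2 matches in capitals, followed by those of Pink1 and Ulk1, the members with the largest change in each direction, in which none of the motifs occurred. Each runs 5′ to 3′ on the gene's strand and covers the 100 bases before the start site, or for Atg13 bases -150 to -51.
Lamp1 (chr8:13159061-13159160, plus strand): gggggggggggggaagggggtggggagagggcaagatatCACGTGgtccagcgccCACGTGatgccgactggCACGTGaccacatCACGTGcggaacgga
Atg3 (chr16:45158729-45158828, plus strand): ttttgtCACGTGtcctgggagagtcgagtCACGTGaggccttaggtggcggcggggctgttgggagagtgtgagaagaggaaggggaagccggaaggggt
Atg13 (chr2:91710643-91710742, minus strand): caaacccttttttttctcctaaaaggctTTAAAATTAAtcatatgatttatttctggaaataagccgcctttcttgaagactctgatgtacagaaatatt
Pink1 (chr4:138326297-138326396, minus strand): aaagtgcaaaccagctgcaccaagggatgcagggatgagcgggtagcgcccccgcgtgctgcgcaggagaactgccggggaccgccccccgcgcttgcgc
Ulk1 (chr5:110810082-110810181, minus strand): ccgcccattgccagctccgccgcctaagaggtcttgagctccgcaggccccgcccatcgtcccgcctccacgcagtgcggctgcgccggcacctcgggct
Lamp1 held 4 E-boxes in this stretch and Atg3 held 2, the latter of them inside the longer form, which adds a lower-case base on either side. A match says only that these letters are present.

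Per length, the level of the 36 genes in WT muscle spanned from 1.01 CPM per kb for Atg7, the activating enzyme of both conjugation systems, to 199 CPM per kb for Pink1. Mitophagy genes, a lysosomal membrane protein and a cargo receptor stood at the top. Pink1 (199 ± 7.14 CPM per kb, SD, n = 2) was followed by Lamp1 at 152 ± 10.6, Sqstm1 at 139 ± 4.89, Bnip3 at 75.6 ± 2.63 and Map1lc3a at 70.7 ± 10.8. Pink1 was clear of Lamp1 in every mouse, whereas Bnip3 and Map1lc3a did not differ beyond their spread. In Mef2dα2 Eko muscle the same 5 genes led, with Pink1 at 249 ± 4.06 CPM per kb, and Map1lc3a and Bnip3 exchanged places. At the other end, Pik3r4 (1.42 ± 0.00508 CPM per kb), Atg4b (1.51 ± 0.0451), Atg14 (1.63 ± 0.0400) and Atg16l1 (1.65 ± 0.0924) lay close together, the last of them overlapping with Atg14. Pink1 stood at the 99.3rd percentile of all genes tested and Atg7 at the 41.9th. The length was that of all annotated exons joined, and by the longest transcript instead, 13 of the 36 levels were over 1.5 times higher, by up to 2.65 times. The leading 5 genes kept their order by either length, and so did the member that was highest in each role.

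**Figure D2:**
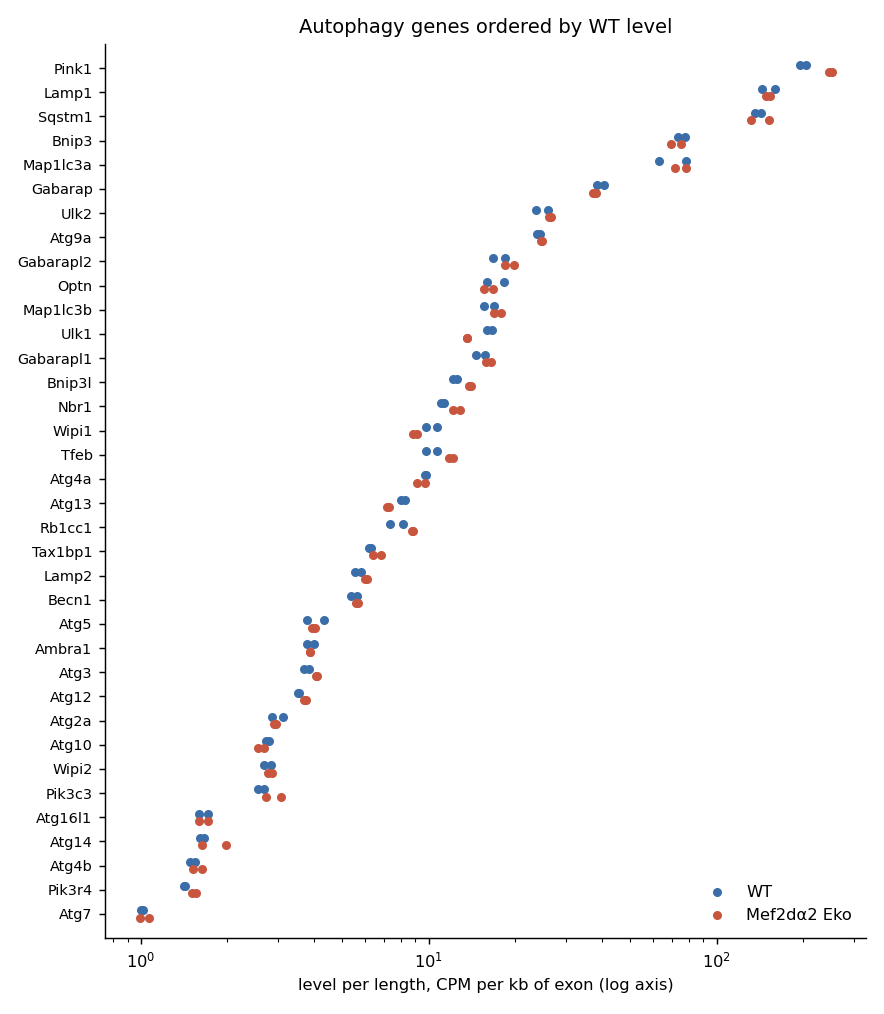
Level per length of the 36 autophagy genes (x axis, CPM per kb of exon, log scale), ordered by the WT mean, with 1 point for each of the 2 WT (blue) and 2 Mef2dα2 Eko (red) mice. The order runs from Pink1, at 199 CPM per kb in WT, to Atg7 at 1.01, and the genotype difference is small beside the range of levels between genes.

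Among the genes that start autophagy, 3 of the 4 measured had an unadjusted p below 0.05, in opposite directions. Over all genes the share was 11.6%, and none of the 4 passed the adjusted threshold. Ulk1, the kinase that starts the process (chr5:110784488-110810097, minus strand), had 107 and 104 CPM in the WT mice and 88.2 and 88.0 CPM in the Mef2dα2 Eko mice. The values of the Mef2dα2 Eko mice were nearly equal, and both lay below the WT values. The log2 fold change was -0.26 (95% interval -0.41 to -0.11), a level 16.4% lower, with an edgeR adjusted p of 0.224. Without WT replicate 1 it was -0.23.

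Ulk2, the paralogous kinase, had the highest level per length of the 4, at 24.7 ± 1.71 CPM per kb in WT, and had 141 and 155 CPM in the WT mice and 157 and 159 CPM in the Mef2dα2 Eko mice. The genotypes did not overlap, but the gap between the WT mice was wider than that between the genotypes (log2 fold change 0.10, 95% interval -0.08 to 0.27, edgeR adjusted p = 0.667; 0.03 without WT replicate 1). Per length, Ulk1 made up 41.3% and 38.1% of the summed Ulk1 and Ulk2 level in the WT mice, against 34.1% and 33.8% in the Mef2dα2 Eko mice (by the longest transcript, 45.7% and 42.4% against 38.2% and 37.9%). With 2 mice against 2, the smallest p an exact two-sided permutation test can give is 0.333.

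Rb1cc1, which encodes the scaffold protein FIP200 (chr1:6206197-6276648, plus strand), had 107.5 and 119 CPM in the WT mice and 129 in each of the Mef2dα2 Eko mice. All Mef2dα2 Eko values were above the WT values, and WT replicate 1 was the lowest (log2 fold change 0.19, 95% interval 0.01 to 0.36, edgeR adjusted p = 0.411). Without WT replicate 1 the log2 fold change was 0.11, and after correcting every library for its trend with GC content it was also 0.11.

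Atg13, the regulatory subunit that binds ULK1 to FIP200 (chr2:91674618-91710576, minus strand), had 35.1 and 36.2 CPM in the WT mice and 31.8 and 31.3 CPM in the Mef2dα2 Eko mice. As for Ulk1, both knockout values were lower than both WT values, with little spread within a genotype. The log2 fold change was -0.17 (95% interval -0.34 to -0.01, edgeR adjusted p = 0.40), and -0.20 without WT replicate 1. Per length, Ulk1 stood at 16.3, Atg13 at 8.16 and Rb1cc1 at 7.72 CPM per kb in WT, and by the longest transcript at 20.2, 9.89 and 14.9, so that the order of Atg13 and Rb1cc1 depended on the length used.

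**Figure D3:**
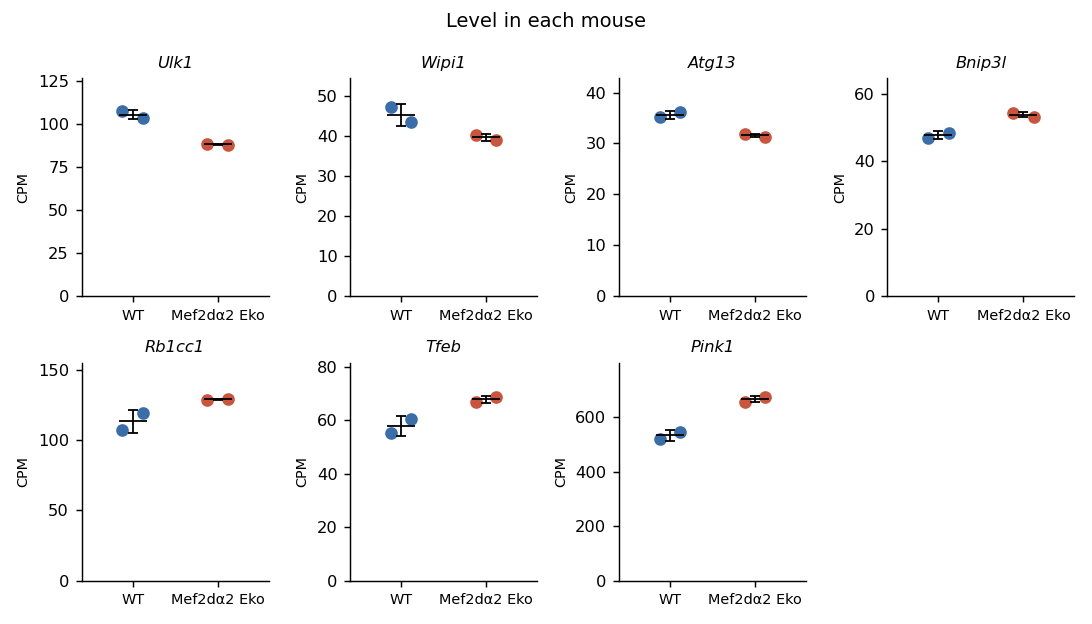
Level of the 7 members with an unadjusted p below 0.05 in each mouse (y axis, CPM from 0), with 2 WT mice in blue and 2 Mef2dα2 Eko mice in red, and black lines for the mean and SD. Ulk1, Wipi1 and Atg13 were lower and Bnip3l, Rb1cc1, Tfeb and Pink1 higher in the Mef2dα2 Eko mice with no overlap, and none passed the adjusted p threshold of 0.05 in edgeR's quasi-likelihood test.

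None of the 5 genes of the class III PI3-kinase complex, which makes the lipid that marks the growing membrane, had an unadjusted p below 0.05. Becn1, the scaffold subunit Beclin 1 and the highest of these genes per length at 5.51 ± 0.208 CPM per kb in WT, had 37.9 and 40.0 CPM in the WT mice and 40.3 and 39.7 CPM in the Mef2dα2 Eko mice. The genotypes overlapped (log2 fold change 0.04, 95% interval -0.12 to 0.20, edgeR adjusted p = 0.873). Without WT replicate 1 the log2 fold change of Becn1 was 0.00. Of its possible 75-base reads, 33.6% also occur in Cntd1, which overlaps it on the other strand, and the strand setting of the counting was not stated.

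Ambra1, an activator of the complex, was nearly level at 23.1 and 24.4 CPM in WT and 23.6 and 23.8 CPM in Mef2dα2 Eko mice. The catalytic subunit Pik3c3 had 11.4 and 12.0 CPM in WT and 12.2 and 13.7 CPM in Mef2dα2 Eko mice (log2 fold change 0.14), and the regulatory kinase subunit Pik3r4 had 13.8 and 13.7 against 14.5 and 15.0 CPM (0.11). For both of these genes the knockout values lay above the WT values. Atg14, which directs the complex to autophagy, had 7.17 and 6.92 CPM in WT and 7.08 and 8.53 CPM in Mef2dα2 Eko mice, so its log2 fold change of 0.15 (95% interval -0.15 to 0.44) came from Mef2dα2 Eko replicate 2 alone. The levels per length of these 4 genes in WT were 3.88 CPM per kb for Ambra1, 2.62 for Pik3c3, 1.42 for Pik3r4 and 1.63 for Atg14.

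Of the 4 genes that supply membrane lipid or read the lipid mark, only Wipi1 had an unadjusted p below 0.05. It encodes a PI3P-binding propeller protein (chr11:109573331-109611967, minus strand) and had 47.1 and 43.3 CPM in the WT mice and 40.1 and 39.0 CPM in the Mef2dα2 Eko mice. The knockout values were the lower ones, and WT replicate 1 was the highest of the 4 (log2 fold change -0.19, 95% interval -0.37 to -0.02, edgeR adjusted p = 0.397). Without WT replicate 1 the log2 fold change was -0.13. Wipi2, its relative that recruits the ATG16L1 complex, had 28.2 and 29.9 CPM in WT and 30.1 and 29.2 CPM in Mef2dα2 Eko mice, and its genotypes overlapped (log2 fold change 0.03).

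Atg9a, the lipid scramblase carried by seed vesicles, was the highest of this group per length at 24.1 ± 0.319 CPM per kb in WT. It had 137.5 and 140.1 CPM in the WT mice and 141 and 143 CPM in the Mef2dα2 Eko mice. These values did not overlap, yet the difference was among the smallest of the 36 (log2 fold change 0.03, 95% interval -0.11 to 0.18, edgeR adjusted p = 0.876; 0.02 without WT replicate 1). Of its possible reads, 28.8% also occur in other loci, chiefly Gm29253 on the same strand, so how they were divided is uncertain. Atg2a, the lipid transfer protein, had 24.0 and 22.0 CPM in WT and 22.7 and 22.4 CPM in Mef2dα2 Eko mice (log2 fold change -0.03). In WT the levels per length were 10.3 CPM per kb for Wipi1, 2.75 for Wipi2 and 2.99 for Atg2a.

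The 8 genes for the conjugation enzymes and their partners showed no difference at an unadjusted p below 0.05. Their log2 fold changes ran from -0.08 to 0.12. Atg4a, a protease that trims ATG8 proteins and the highest of them per length at 9.79 ± 0.0548 CPM per kb in WT, had 25.9 and 26.1 CPM in the WT mice and 25.8 and 24.3 CPM in the Mef2dα2 Eko mice. The knockout values were lower by a margin within the spread of the Mef2dα2 Eko mice (log2 fold change -0.06, 95% interval -0.23 to 0.11, edgeR adjusted p = 0.810; -0.06 without WT replicate 1), and 41.3% of its possible reads also occur in the pseudogene Atg4a-ps.

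Atg3 and Atg12 lay a little higher in both Mef2dα2 Eko mice. Atg3, the E2-like enzyme for ATG8 proteins, had 12.1 and 11.6 CPM in WT and 12.9 and 12.8 CPM in Mef2dα2 Eko mice (log2 fold change 0.12). Atg12, the ubiquitin-like protein joined to ATG5, had 27.0 and 27.4 CPM in WT and 28.8 and 28.5 CPM in Mef2dα2 Eko mice (0.07). Atg10, the E2-like enzyme that joins ATG12 to ATG5, was the lowest member by CPM, at 4.78 and 4.69 CPM in WT and 4.37 and 4.59 CPM in Mef2dα2 Eko mice (log2 fold change -0.08, 95% interval -0.37 to 0.20).

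The genotypes overlapped for the remaining members of this group. Log2 fold changes were 0.06 for the protease gene Atg4b, -0.03 for Atg5, the acceptor of ATG12, and 0.02 for Atg7. Atg16l1, which places the ATG12-ATG5 conjugate on the membrane, had 15.3 and 16.5 CPM in WT and 16.5 and 15.3 CPM in Mef2dα2 Eko mice, the smallest difference of the 36. In WT the levels per length were 4.06 CPM per kb for Atg5, 3.76 for Atg3, 3.53 for Atg12 and 2.76 for Atg10.

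Of the ATG8 genes themselves, whose products coat the membrane and bind receptors, none of the 5 had an unadjusted p below 0.05. Map1lc3a had 74.5 and 92.5 CPM in the WT mice and 92.5 and 84.6 CPM in the Mef2dα2 Eko mice. The genotypes overlapped, and WT replicate 1 was the lowest of the 4 (log2 fold change 0.09, 95% interval -0.18 to 0.35, edgeR adjusted p = 0.813; -0.06 without WT replicate 1). Map1lc3b had 117 and 127 CPM in WT and 127 and 134 CPM in Mef2dα2 Eko mice (log2 fold change 0.10), and Map1lc3a made up 80.0% to 82.3% of the summed LC3 level per length in all 4 mice (70.1% to 73.1% by the longest transcript).

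Gabarap was the ATG8 gene that lay lower, with 71.2 and 74.9 CPM in WT and 68.7 and 70.4 CPM in Mef2dα2 Eko mice (log2 fold change -0.07). Gabarapl1 had 29.5 and 31.5 CPM in WT and 31.8 and 33.0 CPM in Mef2dα2 Eko mice (0.09), and Gabarapl2 had 38.9 and 42.8 against 42.8 and 46.1 CPM (0.12). For Gabarap and Gabarapl1 the genotypes did not overlap, and for Gabarapl2 they did. Per length, Gabarap stood at 39.6, Gabarapl2 at 17.6, Map1lc3b at 16.3 and Gabarapl1 at 15.2 CPM per kb in WT. Reads of Gabarapl1 are uncertain, since 20.5% of those possible also occur in 1700101I11Rik on the other strand, as are 9.53% for Gabarapl2 and 4.09% for Map1lc3b, which share them with pseudogenes and other annotated loci.

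Of the 4 cargo receptors, Nbr1 came nearest to a difference. This receptor for ubiquitinated protein had 77.9 and 75.7 CPM in WT and 83.2 and 88.2 CPM in Mef2dα2 Eko mice, with both knockout values above both WT values (log2 fold change 0.16, 95% interval -0.0018 to 0.32, edgeR adjusted p = 0.437). Sqstm1, which encodes p62 and had the highest level per length of the receptors, had 456 and 479 CPM in WT and 444 and 510.3 CPM in Mef2dα2 Eko mice. The Mef2dα2 Eko mice lay on either side of the WT mice (log2 fold change 0.03, 95% interval -0.18 to 0.23, edgeR adjusted p = 0.933; -0.01 without WT replicate 1), and 14.6% of its possible reads also occur in Mrnip on the other strand.

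Optn, the mitophagy receptor optineurin, had 68.6 and 59.9 CPM in WT and 58.5 and 62.8 CPM in Mef2dα2 Eko mice (log2 fold change -0.08), and only WT replicate 1 stood above the rest. Tax1bp1, a receptor related to NDP52, had 62.2 and 63.2 CPM in WT and 63.8 and 68.3 CPM in Mef2dα2 Eko mice (0.07), with the knockout mice above. The WT levels per length were 17.1 CPM per kb for Optn, 11.2 for Nbr1 and 6.28 for Tax1bp1.

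Pink1, the kinase that marks damaged mitochondria for removal (chr4:138313409-138326307, minus strand), had the largest difference of the 36 as well as the highest level. It had 519 and 546 CPM in the WT mice and 657 and 672 CPM in the Mef2dα2 Eko mice, or 533 ± 19.1 against 665 ± 10.8 CPM (SD, n = 2). The gap between the genotypes was several times the gap between mice of a genotype. The log2 fold change was 0.32 (95% interval 0.15 to 0.48), which is 1.25-fold and its edgeR adjusted p was 0.175.

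With DESeq2 the adjusted p of Pink1 was 0.0025, where 2.39% of the 13307 genes given an adjusted p were called. With edgeR and no filter on low counts it was 0.0048, where 3.25% of all genes were called. In the other 12 alternatives it stayed above 0.05, with log2 fold changes between 0.28 and 0.40 over all 14 and adjusted p between 0.0025 and 0.391. Leaving out WT replicate 1 gave the lowest value, 0.28.

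Bnip3l, which encodes the mitochondrial receptor NIX (chr14:66985239-67008877, minus strand), had 47.0 and 48.5 CPM in WT and 54.3 and 53.2 CPM in Mef2dα2 Eko mice. Both knockout values were above both WT values (log2 fold change 0.17, 95% interval 0.02 to 0.33, edgeR adjusted p = 0.399; 0.15 without WT replicate 1). Of its possible reads, 16.9% also occur in the pseudogene Bnip3l-ps. Its paralogue Bnip3 had 167 and 175.5 CPM in WT and 157 and 169.9 CPM in Mef2dα2 Eko mice, with overlap (log2 fold change -0.07), and shares 34.4% of its possible reads with other loci. Per length, Bnip3l made up 14.2% and 14.0% of the summed level of the pair in the WT mice, against 16.9% and 15.5% in the Mef2dα2 Eko mice.

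Tfeb, the transcription factor that activates lysosomal and autophagy genes (chr17:47737030-47792419, plus strand), had 55.3 and 60.4 CPM in WT and 66.9 and 68.8 CPM in Mef2dα2 Eko mice. The knockout values were the higher ones, and WT replicate 1 was the lowest. The log2 fold change was 0.23 (95% interval 0.06 to 0.40, edgeR adjusted p = 0.317), and 0.17 without WT replicate 1. Per length it stood at 10.2 ± 0.639 CPM per kb in WT, or 24.7 by the longest transcript.

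The genes of the lysosomal membrane proteins differed less. Lamp1 had 386 and 426 CPM in WT and 398 and 409 CPM in Mef2dα2 Eko mice, the knockout values lying between those of the WT mice (log2 fold change -0.01, 95% interval -0.19 to 0.17, edgeR adjusted p = 0.981; -0.08 without WT replicate 1). Lamp2, which is needed for fusion of autophagosomes with lysosomes, had 55.7 and 53.1 CPM in WT and 58.2 and 57.2 CPM in Mef2dα2 Eko mice (0.09), the knockout values being higher. Lamp2 made up 3.38% to 3.93% of the summed LAMP level per length in the 4 mice (7.16% to 8.29% by the longest transcript).

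Log2 fold changes were related to GC content and to transcript length across these libraries. Over the 15606 tested genes with a GC value (96.8%), which share the same 4 libraries, the rank correlation between the GC content of the longest transcript and the log2 fold change was -0.214, and over the 36 members it was -0.0983. With transcript length it was 0.188 over the same genes. Genes rich in GC thus tended to be lower in Mef2dα2 Eko mice. Pink1 (59.0% GC) and Tfeb (63.2%) ran against this trend, Ulk1 (58.0%) ran with it, and so did Rb1cc1 (39.1%) and Bnip3l (41.9%), which are poor in GC.

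After the correction of each library for GC content, 3 members kept an unadjusted p below 0.05. The log2 fold change was then 0.40 for Pink1, 0.34 for Tfeb and -0.19 for Ulk1, with edgeR adjusted p of 0.119, 0.241 and 0.367. Rb1cc1 and Bnip3l came to 0.11 each, Atg13 to -0.15 and Wipi1 to -0.17. A correction for transcript length gave 0.35 for Pink1, 0.26 for Tfeb, -0.29 for Ulk1 and 0.12 for Rb1cc1.

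**Figure D4:**
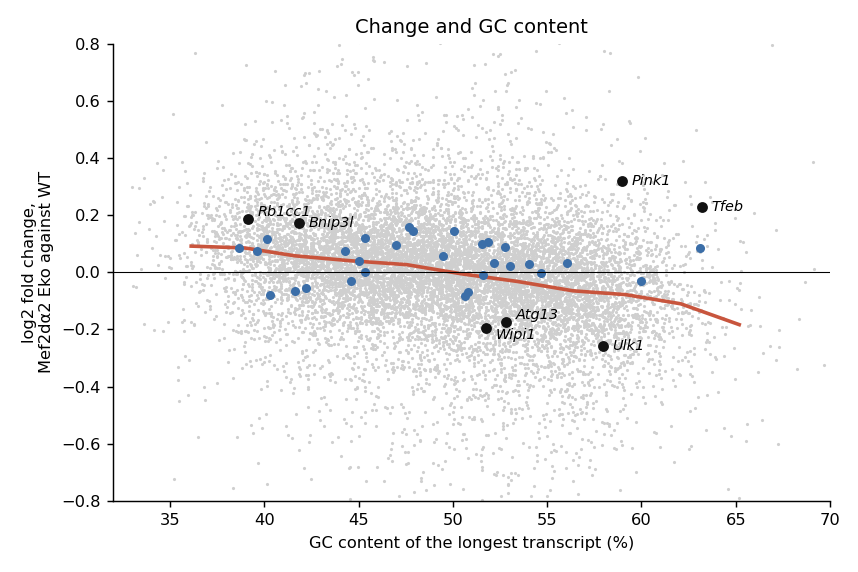
Log2 fold change in Mef2dα2 Eko against WT quadriceps (y axis) against the GC content of each gene's longest transcript (x axis, %), with genes of at least 1 CPM in grey (140 of 11873 lie outside the axes), their running median in red, members in blue and the 7 members with an unadjusted p below 0.05 in black. The red line falls from 0.09 to -0.18 across the plot, and Pink1 and Tfeb lie above it where most genes of like GC content lie below 0.

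The rest of the pathway was read from 4 further lists, also chosen with earlier results of these data known. Of their 113 tested genes, 0 passed the adjusted p threshold in edgeR's quasi-likelihood test. At an unadjusted p below 0.05, 9 were higher and 8 lower in Mef2dα2 Eko mice (15% together, against 11.6% of all genes). The genotypes did not overlap for 30 that were higher (26.5%, against 20.8% of all genes) and 28 that were lower (24.8%, against 23%). DESeq2 called 3 of these genes, where it called 2.39% of all genes, and edgeR without a filter on low counts called 6, where it called 3.25%.

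Among the 28 other core autophagy genes, 3 were higher and 1 lower at an unadjusted p below 0.05 (14.3%, against 11.6% of all genes). The median log2 fold change was 0.01. The genotypes did not overlap for 7 that were higher (25%, against 20.8% of all genes) and 4 that were lower (14.3%, against 23%). Zfyve1, whose product DFCP1 marks the site where autophagosomes form, had 23.7 and 23.4 CPM in WT and 26.8 and 28.7 CPM in Mef2dα2 Eko mice (log2 fold change 0.24, edgeR adjusted p = 0.298). The fusion protein genes Stx17 and Epg5 had log2 fold changes of 0.22 and 0.17, with edgeR adjusted p of 0.385 and 0.411, and Epg5 came to 0.09 with the correction for transcript length. For all 3 the Mef2dα2 Eko values lay above the WT values.

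Of the 17 other receptors and mitophagy genes, 1 was higher and 1 lower at an unadjusted p below 0.05 (11.8%, near the 11.6% of all genes). The median log2 fold change was -0.018. The genotypes did not overlap for 5 that were higher (29.4%, against 20.8% of all genes) and 4 that were lower (23.5%, against 23%). Stbd1, which encodes a starch-binding receptor for glycogen, had 63.5 and 49.6 CPM in the WT mice and 34.8 and 36.7 CPM in the Mef2dα2 Eko mice. WT replicate 1 was the highest, and WT replicate 2 was still above both knockout mice. The log2 fold change was -0.66 (95% interval -0.94 to -0.38, edgeR adjusted p = 0.115), it passed the threshold in 7 of 14 alternatives, and without WT replicate 1 it was -0.47 (edgeR adjusted p = 0.067). Fundc1, a mitophagy receptor of the outer membrane, had 21.1 and 25.1 CPM in WT and 28.6 CPM in each Mef2dα2 Eko mouse (log2 fold change 0.31, edgeR adjusted p = 0.298; 0.19 without WT replicate 1), and Phb2, prohibitin 2 of the inner membrane, had a log2 fold change of -0.15 (edgeR adjusted p = 0.476).

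Of the 28 signalling genes and regulators, 13 were higher (46.4%, against 20.8% of all genes) and 5 lower (17.9%, against 23%) in both Mef2dα2 Eko mice. At an unadjusted p below 0.05, 4 were higher and 1 lower (17.9% together, against 11.6% of all genes), and the median log2 fold change was 0.06. Deptor, an inhibitor that binds mTOR, had 237 and 241 CPM in WT and 164 and 187 CPM in Mef2dα2 Eko mice. Both knockout values were well below the WT values (log2 fold change -0.44, 95% interval -0.64 to -0.25, edgeR adjusted p = 0.116), and it passed the threshold in 6 of 14 alternatives. Fnip1, a partner of folliculin, had 62.3 and 60.4 CPM in WT and 76.0 and 74.5 CPM in Mef2dα2 Eko mice (log2 fold change 0.29, edgeR adjusted p = 0.178; DESeq2 adjusted p = 0.021), and Sesn3, a sestrin, had a log2 fold change of 0.30 (edgeR adjusted p = 0.226).

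Of the 40 lysosomal genes, 5 were higher (12.5%, against 20.8% of all genes) and 15 lower (37.5%, against 23%) in both Mef2dα2 Eko mice. At an unadjusted p below 0.05, 1 was higher and 5 lower (15% together, against 11.6% of all genes), and the median log2 fold change was -0.07. Hexa, a subunit of beta-hexosaminidase, had 27.2 and 26.2 CPM in WT and 22.4 and 22.5 CPM in Mef2dα2 Eko mice (log2 fold change -0.25, edgeR adjusted p = 0.266). The protease gene Ctsz had 17.6 and 16.3 CPM in WT and 14.0 and 13.9 CPM in Mef2dα2 Eko mice (-0.28, edgeR adjusted p = 0.278). Atp6v0a1, a proton pump subunit, went in the opposite direction (log2 fold change 0.22, edgeR adjusted p = 0.303).

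Macrophages are rich in lysosomal enzymes, and the summed level of their markers was also lower. Of 8 macrophage markers, all detected, 6 were lower in both Mef2dα2 Eko mice, where 23% of all genes were. The summed level was 53.9 and 42.7 CPM in WT and 35.8 and 27.9 CPM in Mef2dα2 Eko mice. None of the 8 passed the adjusted p threshold, and their part in the lysosomal values was not tested. Of 6 adipocyte markers, 2 were lower without overlap, where 23% of all genes were. Of 4 Schwann cell markers, 3 were higher without overlap, where 20.8% of all genes were. None of either list passed the adjusted p threshold. The Schwann cell markers summed to 23.2 and 25.8 CPM in WT and 28.6 and 34.8 CPM in Mef2dα2 Eko mice. Whole muscle holds all of these cells, and fewer cells of a type and less RNA per cell cannot be told apart. The summed slow-fibre markers did not follow genotype, at 342 and 805 CPM in WT and 530.6 and 342 CPM in Mef2dα2 Eko mice. Among the 8 skeletal muscle fibre markers, 2 were higher and 3 lower in both Mef2dα2 Eko mice, where 20.8% and 23% of all genes were. The fast fibre myosins Myh2 and Myh1 were among the lower ones, at log2 fold changes of -0.51 and -0.44 (edgeR adjusted p = 0.161 and 0.261). Myh2 had 1576 and 1709 CPM in WT and 1264 and 1041 CPM in Mef2dα2 Eko mice. The fast fibre myosin Myh4 was higher, with 64359 and 64361 CPM in WT and 65461 and 69587 CPM in Mef2dα2 Eko mice. Its log2 fold change was 0.07 (edgeR adjusted p = 0.825). The part of these markers in the members' values was not tested.

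**Figure D5:**
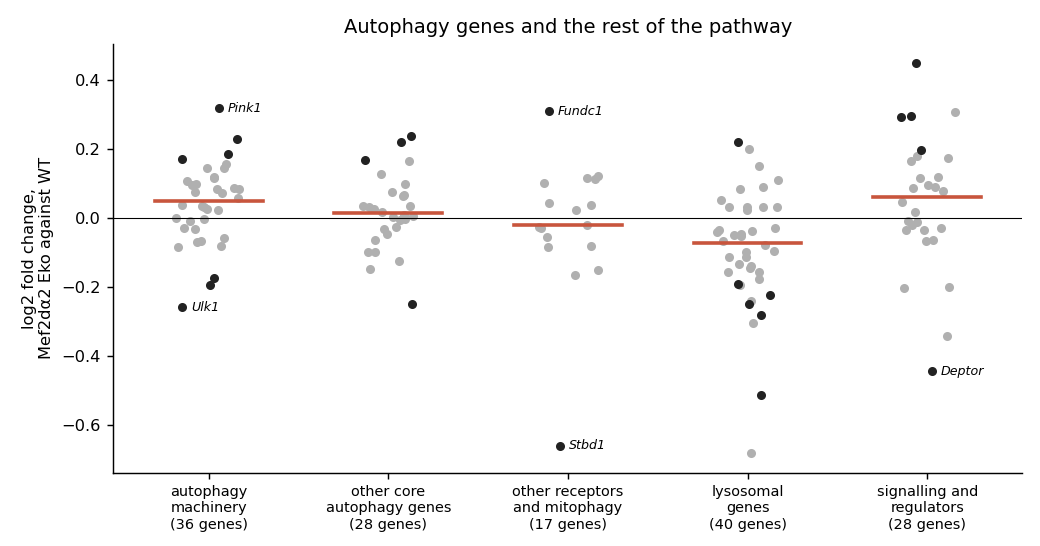
Log2 fold change in Mef2dα2 Eko against WT quadriceps (y axis) for the 36 autophagy genes and the 4 other lists of the pathway (x axis), with 1 point per tested gene, black for an unadjusted p below 0.05 and red lines for list medians. The members' median of 0.05 and the signalling genes' 0.06 lie above 0, the lysosomal genes' median of -0.07 lies below it, and Stbd1 and Deptor lie lowest among the labelled genes.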

How the data were processed

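PolyA-selected RNA was sequenced from 2 WT and 2 Mef2dα2 Eko quadriceps. The deposited table holds RSEM expected counts per gene, which the authors made from reads aligned to mm10 (the submitters' processing notes also name STAR 2.6.1a). All values were whole numbers (0 were not), so no rounding was needed. Whether counting used the strand is not given in the sources used here.

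Counts were fitted in R 4.3.3 with edgeR 4.0.16 (TMM scaling, filterByExpr, quasi-likelihood test on genotype, Benjamini-Hochberg adjustment over 16120 genes, threshold 0.05). The study's methods name DESeq2 and no model formula, and genotype was the only term used here. Intervals are from the quasi-likelihood t distribution. The fit was tested on simulated data. Alternatives were DESeq2 1.42.0, RLE and upper-quartile scaling, no filter, at least 1 CPM in 2 libraries, a likelihood ratio test, limma-voom (limma 3.58.1), the replicate number as a block, each library left out, and, added after the data were seen, corrections for GC content and transcript length.

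Positions, exon lengths, GC content and shared 75-base reads came from GENCODE M21 on GRCm38, promoters from RefSeq. Members and lists were chosen with earlier results of these data known. Every member is named, and values in full are given for those with an adjusted or unadjusted p below 0.05, or without overlap and an absolute log2 fold change of at least 0.2, and for the highest per length in each role. From each other list the 3 genes with the smallest p among those without overlap are named. Of 116 listed pathway genes, 114 were in the table under their symbol and 113 were tested. Atg9b had too few counts. Markers are given by counts and summed levels.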

Additional observations from a re-analysis of the deposited data

How the results depend on the processing

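Of 504 values (36 members in 14 alternatives), 2 passed an adjusted p of 0.05, both for Pink1: DESeq2 and edgeR without a filter on low counts each called 1 member, where the main analysis called 0. The other 12 alternatives, the block and the 4 fits without a library among them, called 0. The 7 members with an unadjusted p below 0.05 kept their direction in all 14. With values rounded to 2 decimals, the sign turned in 13 cases in 8 members, none with an absolute log2 fold change above 0.09, and the cause was not tested. Ambra1 and Atg16l1, whose values round to 0, took either sign, from -0.04 to 0.05 and from -0.05 to 0.07. With a library left out, log2 fold changes ran from -0.08 to 0.04 for Atg2a, -0.01 to 0.09 for Wipi2, -0.12 to 0.09 for Atg5, -0.02 to 0.07 for Atg7, -0.06 to 0.27 for Map1lc3a, -0.08 to 0.14 for Sqstm1, -0.16 to 0.02 for Optn and -0.08 to 0.08 for Lamp1. The GC correction gave 0.06 for Atg2a and 0.01 for Lamp1, and the length correction 0.02 for Lamp1.

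Over the other pathway genes, 3 were called with DESeq2, 6 without a filter, 2 with the likelihood ratio test, 2 with the replicate block, 1 with the length correction, and 0 to 3 with a library left out. Over all genes, 318 were called with DESeq2 (132 higher, 186 lower), 799 without a filter (303 and 496), 312 with the likelihood ratio test (114 and 198), 186 with the replicate block (50 and 136), 23 at 1 CPM or more in 2 libraries, 40 with the GC correction and 99 to 299 with a library left out, against 67 (17 and 50). RLE and upper-quartile scaling moved the median of all genes by 0.0078 and -0.0032 on the log2 scale. Replicate numbers are shared by the genotypes but mark different mice, and the correlation of replicate differences was 0.0909 with only 2 pairs, so the block was not used elsewhere.

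With 2 mice per genotype, each fit without a library leaves 1 mouse in a genotype, which is assumed to vary like the others. The median SD was 3.54% of the mean in WT and 2.16% in Mef2dα2 Eko mice, and the half-widths of the members' 95% intervals were 0.15 to 0.29 on the log2 scale. Differences within them could not be told from 0 even at an unadjusted p of 0.05, and at the adjusted threshold Pink1, at 0.32, was not called either.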
